A study of Mus musculus with 15 samples.

Results

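The genes described here are the cadherin superfamily genes of mouse embryonic stem cells (mESC) after knockdown of Smarcb1, which belongs to the core of the chromatin remodelling complex BAF. They were chosen by symbol alone, as the listed genes named Cdh, Cdhr, Pcdh, Pcdhb, Celsr or Fat with digits only, or Dsc or Dsg with digits and at most 1 letter. This gave 77 of the 55228 genes in the tables. The alpha and gamma protocadherins were not taken, because their gene spans overlap. With a minimum mean of 10 reads over the 15 libraries, 29 of the 77 were followed, and 48 had too few reads, of which 3 (Dsc1, Dsg4 and Pcdhb9) had no read in any library. Of all listed genes, 16370 passed the same minimum and were tested.

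RNA-seq was made from the line 81K1, a single clone derived from the OG2 mESC line, which carries an shRNA against Smarcb1 that is expressed only under doxycycline. The groups were 48 h kd, 72 h kd and 240 h kd (doxycycline at 1 µg per ml, renewed daily) and 48 h ctrl and 240 h ctrl (the same line without doxycycline), with 3 libraries in each of the 5 groups. All cells were grown in serum with LIF on gelatine. The 72 h kd cells have no control of their own time and were set against 48 h ctrl, so that the 48 h and 72 h comparisons share their 3 control libraries and, at 72 h, knockdown and the later harvest cannot be told apart. Cells given doxycycline but lacking the shRNA were not analysed here, and the effect of the drug itself cannot be told apart from that of the knockdown. Nothing in the labels says that the libraries of a group were separate cultures, so the p-values measure the spread between these libraries, which may be technical.

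Cadherins are calcium-dependent adhesion proteins of the cell surface. The classical type I and type II cadherins bind their like on a neighbouring cell and hold actin through beta-catenin and alpha-catenin, while the desmosomal cadherins (desmocollins and desmogleins) hold keratin filaments through plakoglobin, plakophilins and desmoplakin. Protocadherins give cells, above all neurons, a surface identity, and the large Celsr and Fat proteins orient cells within a sheet. In mESC, E-cadherin (Cdh1) holds the colony together, and a loss of Cdh1 with a gain of N-cadherin (Cdh2) is the textbook mark of an epithelial to mesenchymal transition.

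For the cadherin genes called higher at 240 h kd (values below), the stretch just before the RefSeq transcription start is shown, to let the start regions be read side by side. RefSeq (GRCm38.p6) promoters were matched for 20 of the 29 followed genes, and for 8 of the 10 called higher, among them Pcdh17 and Cdh10, which passed the minimum of reads (given below) only through 240 h kd. The 4 shown are those whose 250 bases before the start lie outside the gene span of the tables. They are Pcdh17 at chr14:84443313-84443562 on the plus strand, Pcdh9 at chr14:93890680-93890929, Cdh6 at chr15:13173676-13173925 and Pcdh19 at chrX:133688994-133689243, these last 3 on the minus strand. Capitals mark CG dinucleotides, and each runs 5′ to 3′ up to the base before the start.
Pcdh17: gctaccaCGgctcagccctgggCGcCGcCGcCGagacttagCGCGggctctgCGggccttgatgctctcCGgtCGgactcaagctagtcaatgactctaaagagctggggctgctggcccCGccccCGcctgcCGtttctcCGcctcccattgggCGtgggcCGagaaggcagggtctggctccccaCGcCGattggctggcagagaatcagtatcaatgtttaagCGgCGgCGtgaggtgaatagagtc
Pcdh9: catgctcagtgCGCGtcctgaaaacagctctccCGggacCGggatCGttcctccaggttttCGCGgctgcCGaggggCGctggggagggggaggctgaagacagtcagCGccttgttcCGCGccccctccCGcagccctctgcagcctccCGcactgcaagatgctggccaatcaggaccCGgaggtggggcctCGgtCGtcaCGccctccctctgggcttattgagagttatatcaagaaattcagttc
Cdh6: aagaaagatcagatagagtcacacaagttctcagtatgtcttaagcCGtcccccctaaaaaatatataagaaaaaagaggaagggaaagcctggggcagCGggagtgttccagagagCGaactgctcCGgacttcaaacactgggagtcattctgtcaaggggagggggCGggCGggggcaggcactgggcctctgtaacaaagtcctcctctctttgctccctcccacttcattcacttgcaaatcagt
Pcdh19: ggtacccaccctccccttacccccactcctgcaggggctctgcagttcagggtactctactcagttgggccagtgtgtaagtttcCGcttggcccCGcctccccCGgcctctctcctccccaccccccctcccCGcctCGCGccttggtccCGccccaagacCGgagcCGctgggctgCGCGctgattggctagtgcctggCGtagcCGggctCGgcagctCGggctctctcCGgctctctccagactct

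The start regions differed in base composition. Pcdh17 held 21 CG in 250 bases, Pcdh9 held 18 and Pcdh19 held 16, whereas Cdh6 held 6, which is the median of all 32851 promoters in the table. The GC content was 64.8% for Pcdh17, 63.6% for Pcdh9, 69.2% for Pcdh19 and 51.2% for Cdh6, against a median of 52.4% over all promoters. At least 1 CG was found in 92.1% of all promoters of this length. The hexamer CAGGTG, or its reverse complement CACCTG, is the E-box variant bound by Snai1 and Zeb1. It was found in 17.2% of all promoters. Among the 21 windows of followed genes (Pcdh9 has 2) it was found in 5, those of Celsr2, Fat1, Cdhr4, Pcdh15 and Cdhr1. No match says only that these letters are not in a window. No entry was matched for Cdh1, Cdh2, Cdh3, Cdh4, Cdh13, Celsr1, Dsc2, Dsg2 and Pcdh1.

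The tables hold FPKM over the whole gene span, from which reads were recovered as whole numbers for 100% of the values (within 0.001 of a whole read). The values below are RPM, reads scaled to a library total of 1000000. The totals were 11074998 to 14515300 reads per library. The share of reads on mitochondrial genes was 0.507% to 1.95% in 14 libraries and 2.53% in 48 h kd replicate 2. Between 24684 and 25836 genes had a read in each library of 48 h ctrl, 48 h kd, 72 h kd and 240 h ctrl, and between 26393 and 26535 in 240 h kd. Smarcb1 itself was at 84.7, 86.0 and 97.8 RPM in 48 h ctrl and at 82.2, 88.3 and 84.5 RPM in 240 h ctrl. It was at 12.5, 20.4 and 15.3 RPM in 48 h kd, 13.4, 15.9 and 12.7 RPM in 72 h kd and 17.9, 15.4 and 15.9 RPM in 240 h kd, that is 18.0%, 15.7% and 19.3% of its control mean. Of the 8 mESC marker genes, among them Pou5f1, Nanog and Sox2, none was at 0 in any group, and their summed level was 4567 to 6441 RPM over the 15 libraries. In 240 h kd the sum was 4567 to 4630 RPM, below the 5211 to 5632 RPM of 240 h ctrl, with 3 of the 8 called lower (Esrrb, Klf4 and Zfp42).

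Per kb of exon, E-cadherin (Cdh1) had the highest level of the family in every group. Cdh1 was at 122 RPM per kb of exon in 48 h ctrl, followed by the atypical cadherin Fat1 at 27.6, P-cadherin (Cdh3) at 21.3 and desmoglein 2 (Dsg2) at 9.74. The other 25 followed genes lay between 0.0231 (Pcdh17) and 2.54 (Celsr1) on this scale. Cdh1, Fat1 and Cdh3 held the same first 3 places in 240 h kd, at 64.1, 38.6 and 8.15, whereas Dsg2 went from place 4 to place 6 and Cdh6 from place 18 to place 11. Reads in introns count towards these values, since reads were counted over whole spans, and long genes with many intronic reads come out too high on this scale.

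**Figure D1:**
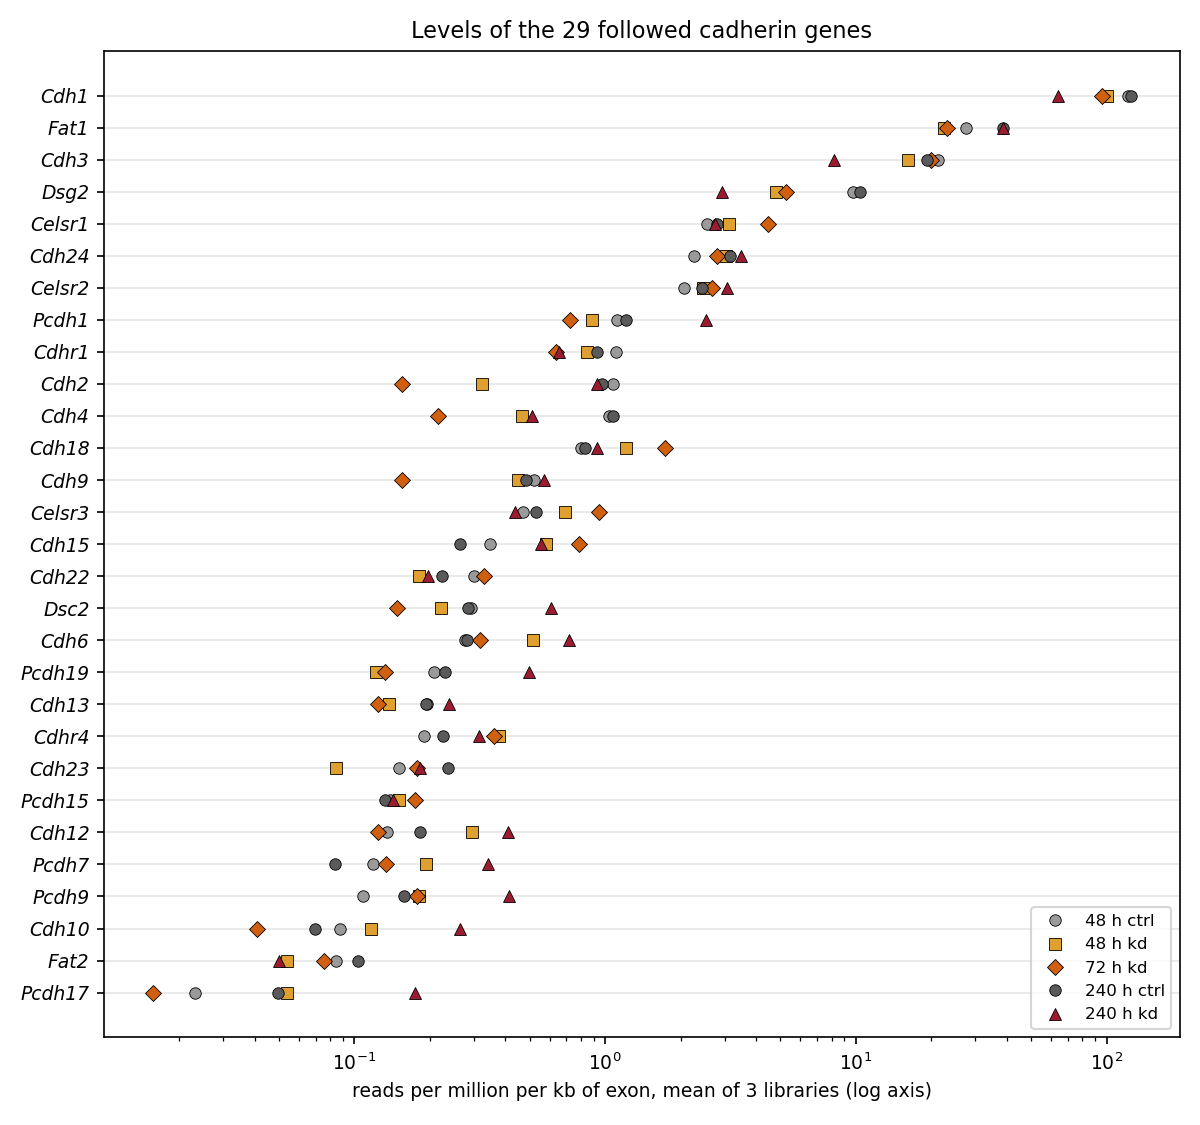
Mean level of each of the 29 followed cadherin genes in the 5 groups, in RPM per kb of exon on a log axis, ordered by the level in 48 h ctrl. Cdh1 stands at the top in every group, and the low genes Pcdh7, Pcdh9, Cdh10 and Pcdh17 have their highest symbol in 240 h kd.

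Across the 29 followed genes, 23 were called in at least 1 of the 3 knockdown comparisons, beside 32.2% of all genes tested. A gene was called at a limma adjusted p under 0.05 over all 16370 genes and a log2 fold change beyond 0.58 in either direction. At 48 h kd, 3 genes rose and 5 fell, where 4.36% of all genes tested rose and 4.84% fell. At 72 h kd, 4 rose and 9 fell, beside 12.1% and 10.2% of all genes. At 240 h kd, 10 rose and 5 fell, beside 9.11% and 8.03% of all genes. The median log2 fold change of the followed genes was -0.22, -0.12 and 0.16 at the 3 times, and that of all genes tested was 0.01, 0.01 and 0.00. The kd and ctrl libraries did not overlap, in either direction, for 41.3%, 64.9% and 53.0% of all genes tested at the 3 times. Dsg2 and R-cadherin (Cdh4) fell at all 3 times, no gene rose at all 3, and Dsc2, Pcdh1 and Pcdh19 fell at 72 h kd and rose at 240 h kd. The protocadherin Pcdh15, the type II genes Cdh22 and Cdh24, Cdhr4, Celsr2 and Fat1 were called at none of the 3. The minimum of reads favoured genes that are high somewhere. Without the 240 h kd libraries, Pcdh17 would have had a mean of 5.58 reads and Cdh10 of 9.42, both under the minimum, so that both were followed only because of the group in which they are high. Their 240 h values are therefore given below as a description, with no p. Both are among the 23 genes called in at least 1 comparison, and only through 240 h, and both enter the 240 h median of 0.16. The 23 set beside 32.2% thus rests in part on the minimum itself. Of the 27 followed genes that reach the minimum without 240 h kd, 8 rose and 5 fell at 240 h.

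Some calls of low genes were lost under other settings. With no minimum of reads, the calls of Cdh4, Cdh6, Cdh12 and Cdh18 at 48 h, of Cdh13, Cdh15 and Pcdh19 at 72 h and of Cdh15 and Pcdh17 at 240 h were lost. With no trend in the prior variance, those of Cdh4, Cdh6 and Cdh12 at 48 h were lost, and with a pseudocount of 0.5 those of Cdh18 at 48 h and of Cdh13 and Pcdh19 at 72 h. With the trend of the values over gene span removed, those of Cdh18 at 48 h (log2 fold change 0.53) and Cdh13 at 72 h (-0.51) were lost. Quantile normalization lost that of Pcdh19 at 72 h (-0.57).

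**Figure D2:**
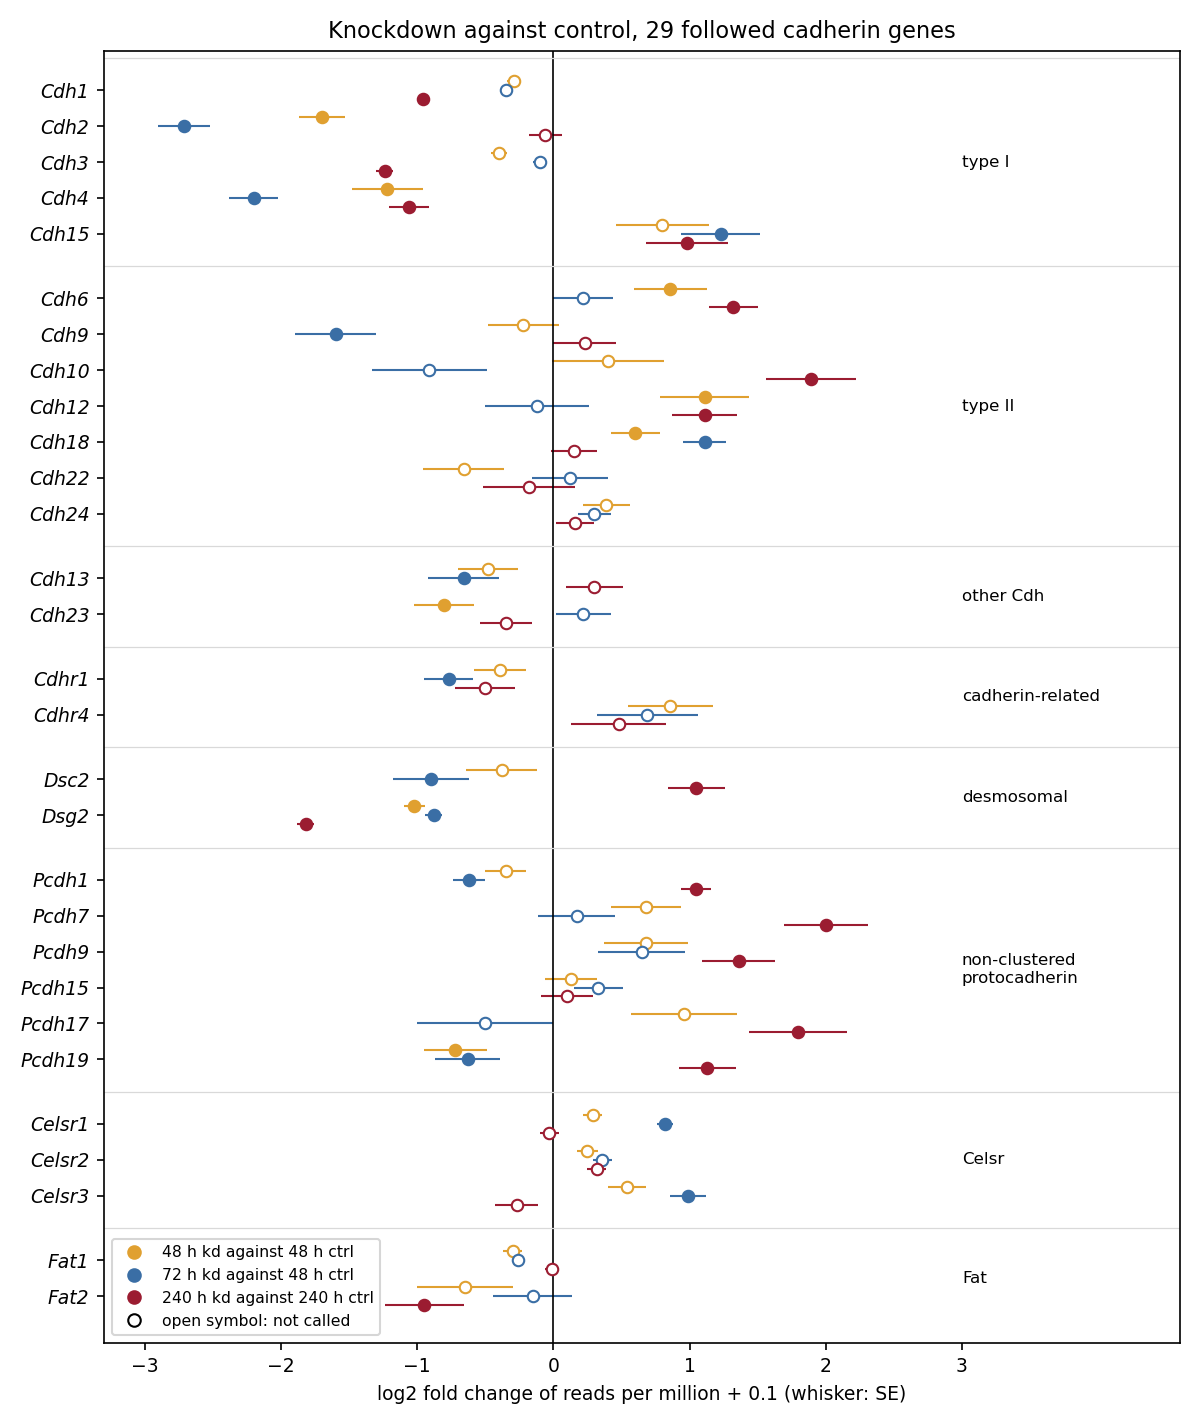
Log2 fold change (symbol) with its standard error (whisker) of each followed cadherin gene in the 3 knockdown comparisons, grouped by subfamily, with filled symbols for called genes. Cdh2 and Cdh4 lie furthest to the left at 72 h kd, and Pcdh7 lies furthest to the right at 240 h kd.

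Among the classical type I cadherins, both high genes fell late and both low neural genes fell early. Cdh1 (E-cadherin, chr8:106603351-106670246, plus strand) was at 564, 559 and 558 RPM in 48 h ctrl, 478, 437 and 458 RPM in 48 h kd, 450, 425 and 444 RPM in 72 h kd, 563, 564 and 582 RPM in 240 h ctrl and 297, 297 and 285 RPM in 240 h kd. Each kd library was below every ctrl library. The log2 fold change was -0.29 ± 0.05 (SE, limma adjusted p = 0.000920) at 48 h and -0.35 ± 0.03 (4.73e-09) at 72 h, both too small to be called, and -0.96 ± 0.04 (4.53e-12) at 240 h, where Cdh1 fell to 51.5% of its control. The effect at 240 h differed from that at 48 h by -0.67 ± 0.06 (limma interaction, adjusted p = 2.24e-07).

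Cdh3 (P-cadherin), which lies upstream of Cdh1 on the same strand (chr8:106510891-106557297, plus strand), took a different course over time. It was at 94.0, 92.5 and 93.9 RPM in 48 h ctrl, 74.1, 66.8 and 71.9 RPM in 48 h kd, 92.1, 79.7 and 89.7 RPM in 72 h kd, 88.0, 84.4 and 81.2 RPM in 240 h ctrl and 34.5, 34.4 and 38.3 RPM in 240 h kd. Its log2 fold change was -0.40 ± 0.06 (limma adjusted p = 0.000230) at 48 h and -0.10 ± 0.05 (0.0762) at 72 h, neither called, and it fell by 1.24 ± 0.06 on the log2 scale (2.97e-11) at 240 h. The 240 h and 48 h effects differed by -0.84 ± 0.08 (limma interaction, adjusted p = 5.83e-07).

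Cdh2 (N-cadherin, the classical cadherin of neural tissue and mesenchyme) fell earlier than Cdh1 and was not called at 240 h. It was at 8.38, 9.47 and 8.04 RPM in 48 h ctrl and at 2.43, 2.30 and 3.07 RPM in 48 h kd. In 72 h kd it was at 1.56, 1.13 and 1.05 RPM, the lowest 3 of the 15 libraries. Cdh2 fell to 30.1% of its control at 48 h (log2 fold change -1.70 ± 0.17, limma adjusted p = 1.30e-05) and to 14.5% at 72 h (-2.71 ± 0.19, 1.05e-11). Between 48 h kd and 72 h kd it fell further, by 1.01 ± 0.24 (limma adjusted p = 0.00475). At 240 h the groups overlapped, with 7.24, 8.12 and 8.13 RPM in ctrl and 7.28, 7.99 and 7.20 RPM in kd, and the log2 fold change was -0.06 ± 0.12 (limma adjusted p = 0.710). The 240 h effect was higher than the 48 h effect by 1.64 ± 0.19 (limma interaction, adjusted p = 6.80e-06).

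Cdh4 (R-cadherin, of retina and brain) fell at every time. It was at 7.95, 7.76 and 6.89 RPM in 48 h ctrl, 1.82, 4.01 and 4.33 RPM in 48 h kd, 1.64, 1.62 and 1.43 RPM in 72 h kd, 7.96, 7.14 and 8.28 RPM in 240 h ctrl and 4.17, 3.10 and 3.82 RPM in 240 h kd. No kd library reached the lowest ctrl library, and 48 h kd replicate 1 was far below the other 2 of its group. The log2 fold change was -1.22 ± 0.26 (limma adjusted p = 0.00435), -2.20 ± 0.18 (1.18e-10) and -1.06 ± 0.15 (2.04e-05) at 48, 72 and 240 h. For Cdh4 no difference between the 240 h and 48 h effects was found (0.16 ± 0.33, limma interaction adjusted p = 0.784).

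Cdh15 (M-cadherin, of muscle) was the type I gene that rose. Its 3 values were 0.948, 1.80 and 0.618 RPM in 48 h ctrl and 2.42, 2.51 and 2.71 RPM in 72 h kd (log2 fold change 1.23 ± 0.29, limma adjusted p = 0.000795). They were 0.724, 1.14 and 0.703 RPM in 240 h ctrl and 2.50, 1.58 and 1.32 RPM in 240 h kd (0.98 ± 0.30, 0.0143). The 240 h call was lost without 240 h kd replicate 1, the highest library, at 0.73. Cdh15 lies within the span of the readthrough gene Gm20388, so reads of that transcript cannot be told apart from its own.

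**Figure D3:**
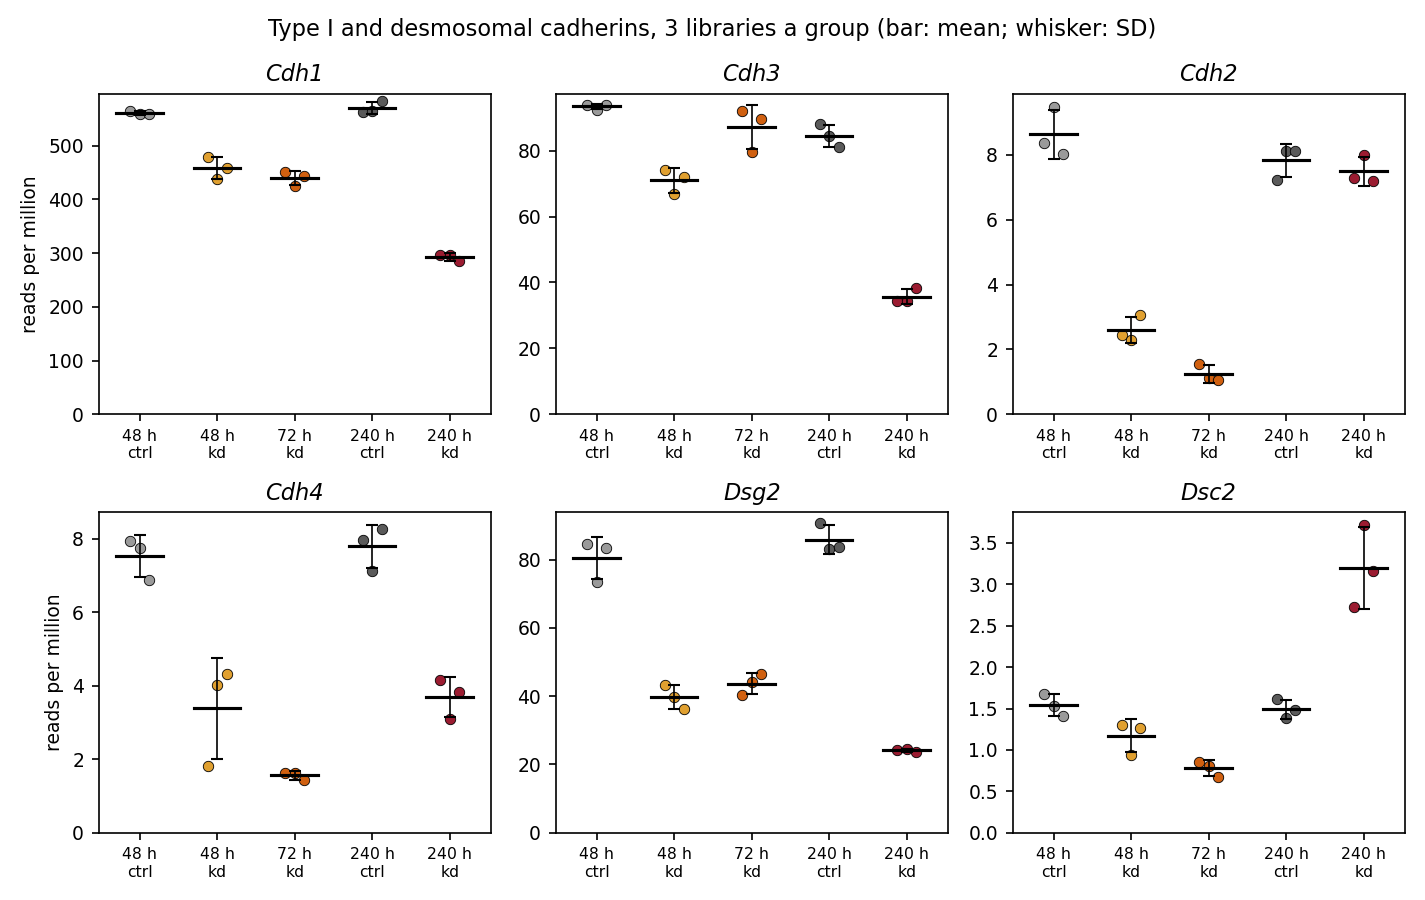
Level in RPM of Cdh1, Cdh3, Cdh2, Cdh4, Dsg2 and Dsc2 in each of the 15 libraries (points), with the group mean (bar) and SD (whisker), on axes from 0. Cdh1 and Cdh3 are lowest in 240 h kd, Cdh2 and Cdh4 are lowest in 72 h kd, and Dsc2 is highest in 240 h kd.

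The desmosomal genes split. Dsg2, the desmoglein of simple epithelia, was at 84.7, 73.4 and 83.5 RPM in 48 h ctrl, 43.4, 39.7 and 36.2 RPM in 48 h kd, 40.3, 44.1 and 46.6 RPM in 72 h kd, 90.6, 83.0 and 83.7 RPM in 240 h ctrl and 24.3, 24.6 and 23.6 RPM in 240 h kd. Kd and ctrl libraries did not overlap at any time. The log2 fold change was -1.02 ± 0.08 (limma adjusted p = 1.86e-06), -0.88 ± 0.06 (7.23e-12) and -1.82 ± 0.06 (1.95e-13), and the 240 h effect was lower than the 48 h effect by -0.81 ± 0.10 (limma interaction, adjusted p = 1.25e-05). An antisense gene, Gm16090, overlaps part of Dsg2 and held a mean of 439 reads where Dsg2 held 679, and since no source used here says that counting used strand, its reads may not be separable from those of Dsg2 in the overlap. Gm16090 fell with it, from a mean of 55.1 ± 4.10 RPM (SD, n = 3) to 27.3 ± 2.05 RPM at 48 h and from 52.2 ± 2.18 to 14.8 ± 1.45 RPM at 240 h.

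Dsc2, the desmocollin that pairs with Dsg2, was low and moved both ways. It was at 1.68, 1.53 and 1.41 RPM in 48 h ctrl, 1.30, 0.938 and 1.26 RPM in 48 h kd and 0.859, 0.810 and 0.678 RPM in 72 h kd. It was at 1.61, 1.38 and 1.48 RPM in 240 h ctrl and at 2.73, 3.72 and 3.16 RPM in 240 h kd. All 3 libraries of 72 h kd were below, and all 3 of 240 h kd above, every ctrl library. Dsc2 fell by 0.90 ± 0.28 (limma adjusted p = 0.00800) at 72 h and rose by 1.05 ± 0.21 (0.000652) at 240 h, and the 240 h and 48 h effects differed by 1.43 ± 0.30 (limma interaction, adjusted p = 0.00259). The other 7 desmosomal genes (Dsc1, Dsc3, Dsg1a, Dsg1b, Dsg1c, Dsg3 and Dsg4) were under the minimum, with at most 10 reads in any library.

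Of the cytoplasmic and membrane partners of desmosomal cadherins, plakoglobin, desmoplakin and plakophilin 2 fell at all 3 times. Plakoglobin (Jup) was at 140, 144 and 147 RPM in 48 h ctrl, 77.4, 62.9 and 72.0 RPM in 48 h kd, 77.4, 74.9 and 79.2 RPM in 72 h kd, 151, 158 and 165 RPM in 240 h ctrl and 61.5, 64.9 and 65.1 RPM in 240 h kd. Its kd libraries lay below all ctrl libraries at each time. Jup fell (log2 fold change -1.03 ± 0.07, -0.90 ± 0.04 and -1.31 ± 0.05, limma adjusted p = 6.87e-07, 7.66e-15 and 1.74e-12), as did desmoplakin (Dsp, -1.57 ± 0.09, -0.81 ± 0.08 and -1.12 ± 0.07, limma adjusted p = 1.32e-07, 2.26e-09 and 6.34e-10). Plakophilin 2 (Pkp2) fell by 0.90, 0.77 and 0.87 on the log2 scale, and plakophilin 3 (Pkp3) by 0.75 at 48 h and 1.25 at 240 h. Perp, a membrane protein of desmosomes, fell by 0.93 at 48 h and 1.54 at 72 h, and periplakin (Ppl) by 0.91 at 48 h. Envoplakin (Evpl) rose by 0.68 at 72 h, but against 240 h ctrl its value was 0.32 and it was not called.

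The catenins that serve the classical cadherins differed among themselves. Beta-catenin (Ctnnb1) was at 794, 814 and 828 RPM in 48 h ctrl and at 780, 799 and 798 RPM in 240 h kd. It was called at no time, with log2 fold changes of -0.17, 0.00 and -0.03. Alpha-catenin (Ctnna1) was called at no time either (-0.14, 0.05 and -0.23). P120-catenin (Ctnnd1), which keeps cadherins at the surface, fell by 0.72 at 72 h, the neural delta-catenin (Ctnnd2) fell at all 3 times (-0.87, -1.87 and -0.92), and the low Ctnna2 and Ctnna3 rose at 240 h, by 1.20 and 1.02, of which the call of Ctnna2 was lost with no minimum of reads (adjusted p = 0.104). The alpha-catenin-like gene Ctnnal1 fell by 0.79 at 72 h and rose by 1.42 at 240 h, from 95.1 ± 1.85 RPM to 254 ± 2.62 RPM (SD, n = 3). The actin linker afadin (Afdn) rose by 0.80 at 72 h. Of the 18 cytoplasmic partner genes tested (of 19 listed), 0 rose and 7 fell at 48 h, 2 rose and 7 fell at 72 h, and 3 rose and 5 fell at 240 h. The shares of all genes tested that rose and fell were 4.36% and 4.84%, 12.1% and 10.2%, and 9.11% and 8.03% at the same times.

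Of the 6 transcriptional repressors of Cdh1 tested (of 8 listed), 1 rose and 0 fell at 48 h, 1 rose and 1 fell at 72 h, and 3 rose and 0 fell at 240 h, beside the shares of all genes just given. Zeb1 rose at every time. It was at 11.2, 12.4 and 9.80 RPM in 48 h ctrl, 21.5, 24.5 and 21.9 RPM in 48 h kd, 26.3, 23.9 and 25.6 RPM in 72 h kd, 14.9, 14.8 and 15.6 RPM in 240 h ctrl and 32.7, 33.0 and 33.7 RPM in 240 h kd. Each kd library was above every ctrl library. The log2 fold change of Zeb1 was 1.02 ± 0.11, 1.18 ± 0.09 and 1.13 ± 0.07 (limma adjusted p = 2.39e-05, 9.12e-11 and 1.44e-09). Snai1 rose at 240 h, from 1.60 ± 0.129 to 3.89 ± 0.60 RPM (SD, n = 3; 1.22 ± 0.20, limma adjusted p = 9.81e-05), and Twist1 rose by 0.73 ± 0.20 (0.00746), a call lost without 240 h kd replicate 2 (0.0554). Zeb2 fell by 0.69 ± 0.23 at 72 h (limma adjusted p = 0.0130), a call lost without 48 h ctrl replicate 1 or 72 h kd replicate 2 (adjusted p up to 0.0782). With no minimum of reads the calls of Twist1 (0.0758) and Zeb2 (0.123) were also lost. Tcf3 was called at no time, with log2 fold changes of -0.25, -0.06 and -0.32, nor was Snai3 (-0.18, -0.40 and 0.12). Snai2 and Twist2 were under the minimum of reads.

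**Figure D4:**
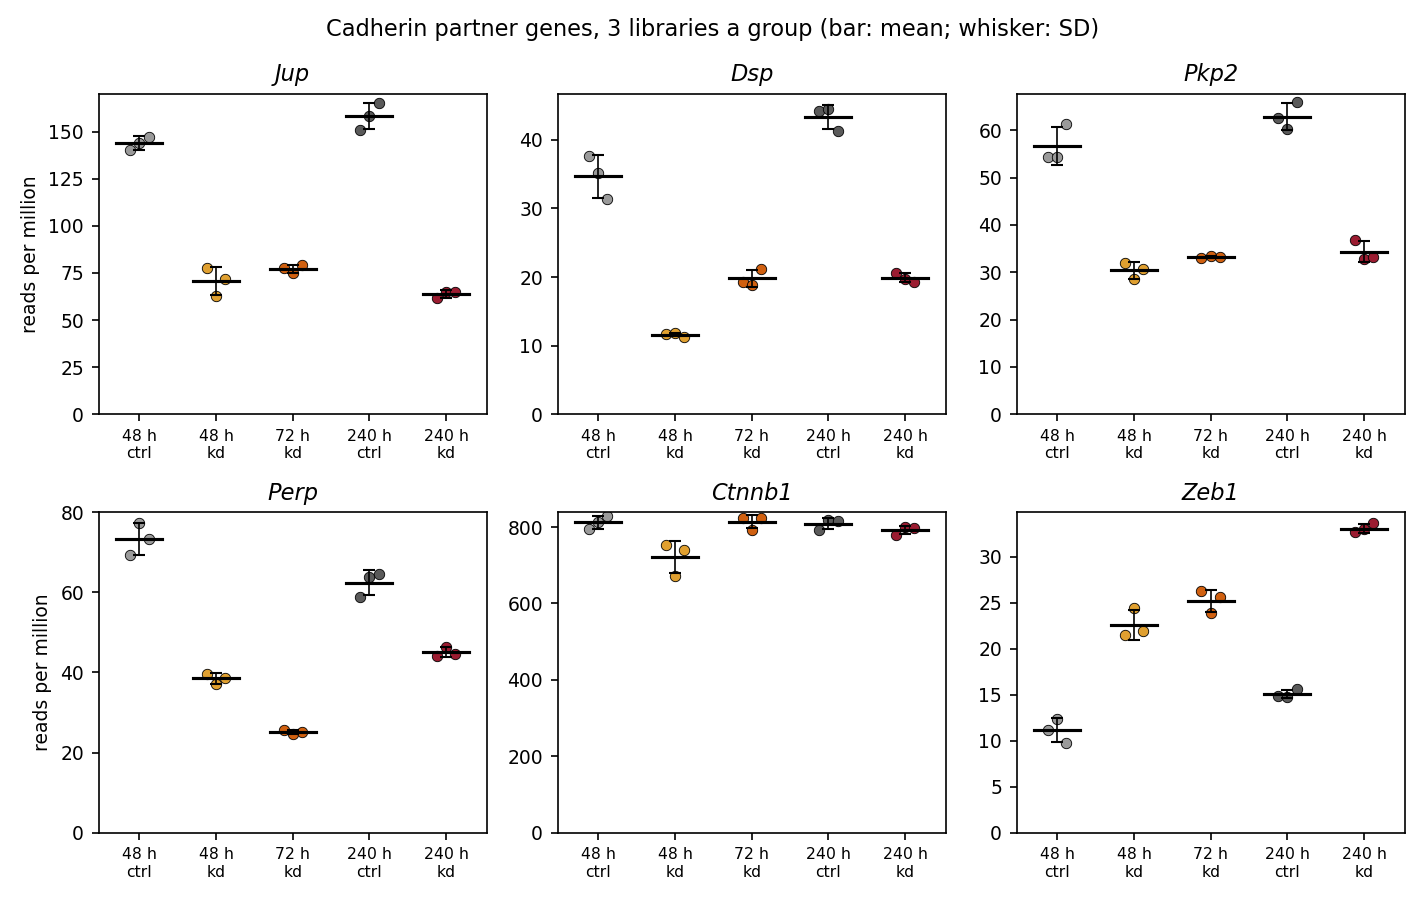
Level in RPM of the partner genes Jup, Dsp, Pkp2, Perp, Ctnnb1 and Zeb1 in each of the 15 libraries (points), with the group mean (bar) and SD (whisker), on axes from 0. Jup, Dsp and Pkp2 are lower in every kd group than in their ctrl, Ctnnb1 stays between 673 and 828 in all libraries, and Zeb1 is higher in every kd group.

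Of the 7 type II cadherins followed, which are mostly cadherins of the nervous system, 3 rose and 0 fell at 48 h, 1 rose and 1 fell at 72 h, and 3 rose and 0 fell at 240 h, or 2 rose at 240 h of the 6 that reach the minimum without 240 h kd. Of all genes tested, 4.36%, 12.1% and 9.11% rose and 4.84%, 10.2% and 8.03% fell at these times, so that both counts at 72 h are near those shares. Cdh6 (K-cadherin, of kidney and neural crest) was at 3.21, 1.80 and 2.47 RPM in 48 h ctrl, 4.25, 6.48 and 3.25 RPM in 48 h kd, 3.28, 2.91 and 2.41 RPM in 72 h kd, 2.73, 2.76 and 2.11 RPM in 240 h ctrl and 7.66, 5.79 and 6.02 RPM in 240 h kd. At 48 h each kd library was above the ctrl libraries, by a small margin (3.25 against 3.21 RPM), at 72 h the groups overlapped, and at 240 h the gap was wide. Cdh6 rose by 0.86 ± 0.27 (limma adjusted p = 0.0319) at 48 h and by 1.32 ± 0.18 (9.45e-06) at 240 h. The 48 h call was lost without 48 h ctrl replicate 2 (log2 fold change 0.65), without 48 h ctrl replicate 3 (0.87) and without 48 h kd replicate 2, the library with the highest mitochondrial share (0.59), with adjusted p up to 0.142.

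Cdh10 and Cdh12, both of brain, were at similar levels in 240 h kd. Cdh10 was at 0.965, 0.812 and 0.313 RPM in 240 h ctrl and at 2.28, 2.96 and 2.72 RPM in 240 h kd, a log2 fold change of 1.89 ± 0.33 (SE), given with no test since 240 h kd itself brought the gene over the minimum. Cdh12 was at 0.965, 1.46 and 1.02 RPM in 240 h ctrl and at 2.96, 2.41 and 2.35 RPM in 240 h kd (1.11 ± 0.24, limma adjusted p = 0.00124), and it had also risen at 48 h, from 0.849 ± 0.359 to 1.86 ± 0.364 RPM (SD, n = 3; 1.11 ± 0.33, limma adjusted p = 0.0278). The 48 h call was lost without 48 h ctrl replicate 2 (0.76) and without 48 h kd replicate 1 (1.05), with adjusted p up to 0.113. In 72 h kd neither was called, with Cdh12 at 0.781 ± 0.406 RPM (92.0% of its control) and Cdh10 at 0.412 ± 0.235 RPM (47.0%). All of these rest on 3 to 43 reads a library, and genes overlapping Cdh12 held reads equal to 60.2% of its own.

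Cdh18 and Cdh9 moved at 72 h. Cdh18 (cadherin of the central nervous system) was at 4.23, 3.79 and 2.91 RPM in 48 h ctrl, 4.95, 5.54 and 6.05 RPM in 48 h kd and 7.5, 8.26 and 7.98 RPM in 72 h kd, so that the 3 groups did not overlap. It rose by 0.60 ± 0.18 (limma adjusted p = 0.0270) at 48 h and by 1.11 ± 0.16 (1.27e-06) at 72 h. The 48 h call was lost without 48 h ctrl replicate 2 (log2 fold change 0.63), 48 h ctrl replicate 3 (0.45) or 48 h kd replicate 3 (0.53), with adjusted p up to 0.116. At 240 h its difference was 0.15 ± 0.17 (limma adjusted p = 0.515). Cdh9 was at 1.68, 1.98 and 1.85 RPM in 48 h ctrl and at 0.469, 0.729 and 0.452 RPM in 72 h kd (-1.60 ± 0.30, limma adjusted p = 5.89e-05), and its kd and ctrl libraries overlapped at 48 h and at 240 h. Gm49127, which overlaps Cdh9, held reads equal to 36.3% of its own. The type II genes Cdh22 and Cdh24 had log2 fold changes between -0.66 and 0.39 over the 3 times and were not called. Gm17606, which overlaps Cdh24, held a mean of 3560 reads where Cdh24 held 128.8, and their reads may not be separable. Type II genes Cdh5, Cdh7, Cdh8, Cdh11, Cdh19 and Cdh20 were under the minimum, with at most 18 reads in any library.

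Of the 5 non-clustered protocadherins that reach the minimum of reads without 240 h kd, 4 (Pcdh1, Pcdh7, Pcdh9 and Pcdh19) rose at 240 h, where 9.11% of all genes tested rose. The sixth that was followed, Pcdh17, passed the minimum only through that group. Before that, 0 of the 6 had risen at 48 h and 0 at 72 h by limma, beside 4.36% and 12.1% of all genes, while Pcdh19 fell at 48 h and Pcdh1 and Pcdh19 fell at 72 h. Pcdh1, an adhesion protein of epithelia and the most abundant of the 6, was at 9.19, 10.6 and 9.54 RPM in 48 h ctrl, 6.25, 9.64 and 7.40 RPM in 48 h kd, 6.02, 6.15 and 6.85 RPM in 72 h kd, 10.5, 11.4 and 10.0 RPM in 240 h ctrl and 18.5, 22.3 and 25.9 RPM in 240 h kd. All 3 libraries of 72 h kd were below, and all 3 of 240 h kd above, every ctrl library. Its log2 fold change was -0.35 ± 0.15 (limma adjusted p = 0.117), -0.62 ± 0.12 (0.000127) and 1.05 ± 0.11 (7.59e-07). The 72 h call was lost without 48 h ctrl replicate 2, where the value was -0.56.

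Pcdh19, a neural delta protocadherin on the X chromosome, was at 2.33, 2.16 and 2.03 RPM in 48 h ctrl, 1.30, 1.36 and 1.17 RPM in 48 h kd, 1.48, 1.62 and 1.05 RPM in 72 h kd, 3.14, 2.44 and 1.64 RPM in 240 h ctrl and 5.39, 5.17 and 5.07 RPM in 240 h kd. It was the followed gene with the largest difference between the 240 h and 48 h effects, at 1.85 ± 0.30 (limma interaction, adjusted p = 0.000212). The early falls (-0.72 ± 0.23 and -0.63 ± 0.24, limma adjusted p = 0.0331 and 0.0275) rest on 13 to 32 reads a library and were lost when any of 5 of the 6 libraries was left out at 48 h (limma adjusted p up to 0.103) and any of 3 of the 6 at 72 h (up to 0.134). The rise at 240 h (1.13 ± 0.21, limma adjusted p = 0.000278) was called whichever of the 6 libraries was left out.

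Pcdh7, Pcdh9 and Pcdh17, all neural protocadherins, had their largest differences at 240 h. Pcdh7 (chr5:57717967-58133230, plus strand) was at 0.804, 1.38 and 0.469 RPM in 240 h ctrl and at 4.25, 2.82 and 3.75 RPM in 240 h kd, the largest log2 fold change of any followed cadherin gene at that time (2.00 ± 0.31, limma adjusted p = 4.55e-05). Pcdh9 was at 0.643, 1.22 and 1.33 RPM and at 2.96, 3.17 and 2.28 RPM (1.36 ± 0.27, 0.000644). Pcdh17 was at 0.804, 0.893 and 0.234 RPM and at 2.73, 2.00 and 2.06 RPM, a log2 fold change of 1.80 ± 0.36 (SE) given with no test, since 240 h kd itself brought the gene over the minimum. Their RPM means at 48 h were higher in kd too (2.04 against 1.25, 1.23 against 0.732 and 0.700 against 0.30 RPM), without passing the test (limma adjusted p = 0.0748, 0.130 and 0.0900). In 72 h kd the means were 1.41, 1.20 and 0.205 RPM, so that Pcdh17 was then below its control and Pcdh7 near it, and none of the 3 was called (limma adjusted p = 0.613, 0.0809 and 0.398). Pcdh15, a protein of the hair cell tip link, stayed between 2.73 and 4.45 RPM in all libraries and was not called.

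**Figure D5:**
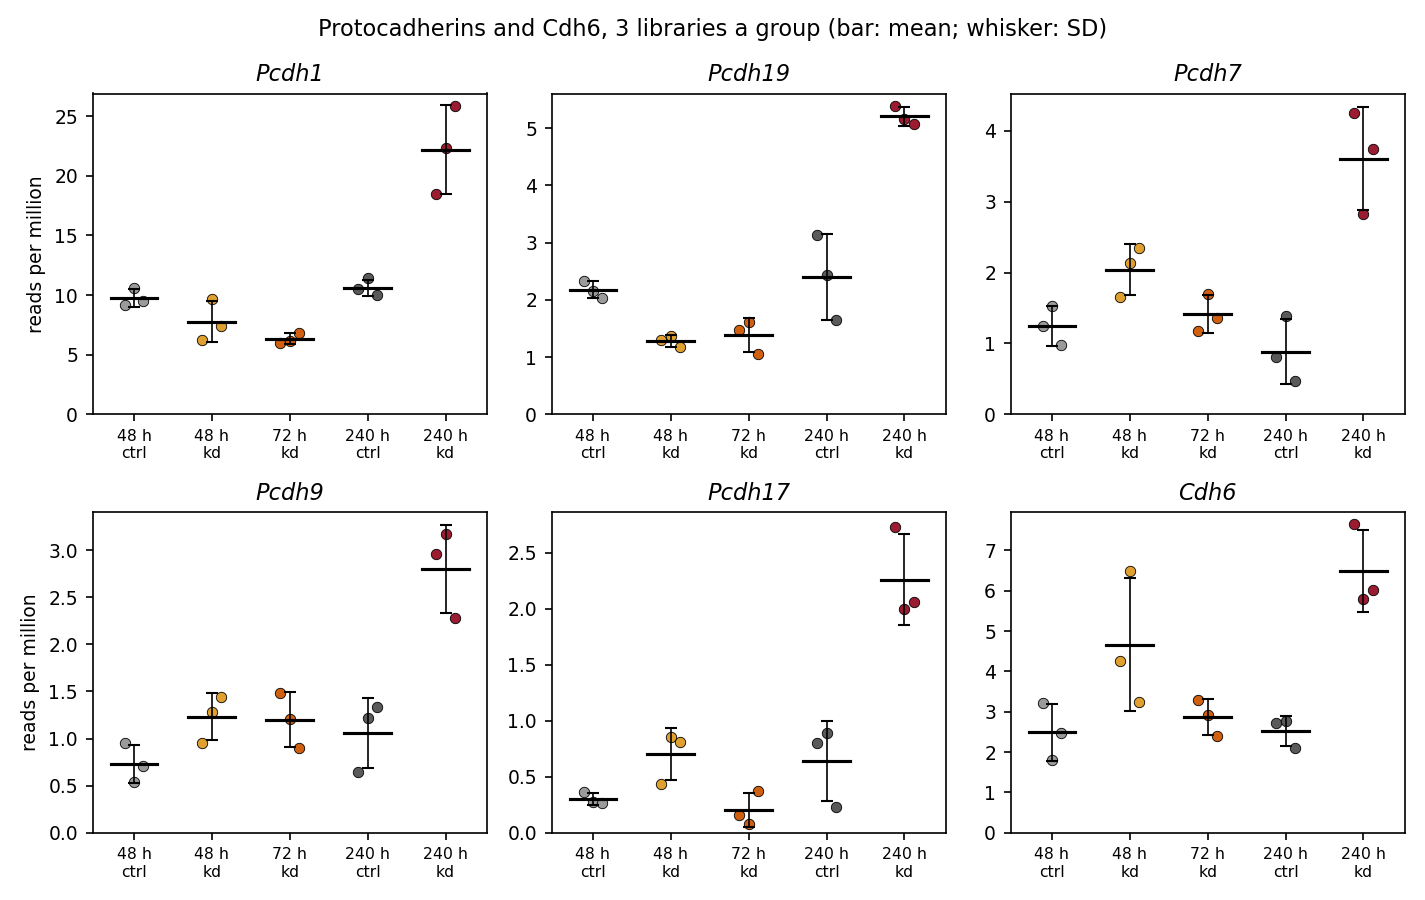
Level in RPM of Pcdh1, Pcdh19, Pcdh7, Pcdh9, Pcdh17 and Cdh6 in each of the 15 libraries (points), with the group mean (bar) and SD (whisker), on axes from 0. The genes are shown because they were called higher at 240 h, and Pcdh17 was followed only through that group. Pcdh1 and Pcdh19 are lower in 72 h kd than in 48 h ctrl.

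Values that moved with these late rises stand here, and their part in the rises was not tested. The 240 h kd libraries had the most genes with a read. Their totals were 13181394, 14515300 and 13617436 reads, against 11074998 to 13716912 in the libraries of the other groups, and the part of depth in that count was not tested. Of the 10 cadherin genes called higher at 240 h, Cdh10 and Pcdh17 included, 9 had a mean under 100 reads, as did 21 of the 29 followed. The mESC marker sum was lower in 240 h kd, as given above, and this moved also with the late falls of Cdh1, Cdh3 and Dsg2, where its part was not tested. Summed levels of other marker lists moved too. The summed level of 4 primed epiblast markers was 603 to 608 RPM against 336 to 345 RPM in 240 h ctrl, with 2 of 4 called higher (Fgf5 and Dnmt3b). That of 6 trophoblast markers was 56.7 to 60.7 against 22.7 to 25.5 RPM, with Krt8 and Krt18 called higher and Eomes lower. That of 5 primitive endoderm markers was 15.2 to 16.7 against 9.14 to 10.5 RPM (2 higher), of 4 mesoderm markers 3.26 to 3.75 against 1.38 to 2.73 RPM (1 higher), of 4 neural progenitor markers 124 to 128 against 58.4 to 61.2 RPM (2 higher), of 4 neuron markers 173 to 190 against 154 to 178 RPM (0 higher and 1 lower by limma) and of 6 feeder fibroblast markers 17.2 to 20.9 against 4.66 to 5.60 RPM (1 higher, Col1a1). No marker was at 0 over the 240 h kd libraries. Fewer cells of a type and less RNA per cell cannot be told apart in bulk samples.

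The early falls had their own companions. In 72 h kd the primed epiblast sum was 194 to 199 RPM against 349 to 368 RPM in 48 h ctrl, with all 4 markers called lower, and the neuron sum was 88.0 to 94.2 against 168 to 180 RPM, with 3 of 4 lower, while the neural progenitor sum was 95.1 to 104 against 57.7 to 64.8 RPM, with Sox1 higher and Pax6 lower. The mESC sum was 6236 to 6441 against 5592 to 5859 RPM, with Dppa5a higher and Klf4 lower, and the feeder fibroblast sum 5.08 to 6.18 against 3.07 to 3.36 RPM, with Col1a1 higher. In 48 h kd, Klf4, Otx2, Eomes, Pax6, Map2 and Rbfox3 were called lower and Sox1 and Col1a1 higher. The part of these in the falls of Cdh2, Cdh4 and Cdh9 was not tested.

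The seven-pass cadherins Celsr1 and Celsr3 rose at 72 h. These proteins set planar polarity, Celsr1 in epithelia and Celsr3 in growing axons. Celsr1 was at 27.3, 26.9 and 29.9 RPM in 48 h ctrl, 34.8, 35.2 and 33.0 RPM in 48 h kd and 46.6, 49.5 and 52.0 RPM in 72 h kd, so that the 3 groups did not overlap. It rose by 0.82 ± 0.06 (limma adjusted p = 6.33e-11) at 72 h, after 0.29 ± 0.07 at 48 h, and the 240 h groups overlapped, with 32.2, 30.5 and 29.2 RPM for ctrl and 29.7, 30.7 and 29.6 RPM for kd. Celsr3 was at 5.18, 5.86 and 6.01 RPM in 48 h ctrl, 7.73, 9.55 and 7.67 RPM in 48 h kd and 9.92, 10.8 and 13.6 RPM in 72 h kd. Celsr3 rose by 0.99 ± 0.13 (limma adjusted p = 6.62e-07) at 72 h and had a log2 fold change of -0.27 ± 0.16 at 240 h. Celsr2 was not called, though its log2 fold change was above 0 at all 3 times (0.25 ± 0.08, 0.36 ± 0.07 and 0.32 ± 0.07, limma adjusted p = 0.0378, 0.000123 and 0.00212).

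Fat1, a giant cadherin that restrains growth, was second to Cdh1 in level per kb of exon, although in RPM its mean was above that of Cdh1 in both 240 h groups. In RPM it was at 459, 434 and 404 RPM in 48 h ctrl, 334, 384 and 336 RPM in 48 h kd, 370, 359 and 353 RPM in 72 h kd, 638, 591 and 591 RPM in 240 h ctrl and 657, 561 and 597 RPM in 240 h kd. Its kd libraries were below those of 48 h ctrl, but the log2 fold changes of -0.30 ± 0.07 and -0.26 ± 0.04 were too small to be called (limma adjusted p = 0.00464 and 6.66e-06), and at 240 h the groups overlapped. The difference between its 2 ctrl groups was larger, 0.49 higher at 240 h (limma adjusted p = 3.87e-05), also below the fold minimum. Fat2 was at 1.53, 1.71 and 1.25 RPM in 240 h ctrl and at 0.607, 0.689 and 0.881 RPM in 240 h kd and fell by 0.95 ± 0.29 (limma adjusted p = 0.0122), a call lost without 240 h ctrl replicate 2 (0.0590). Fat3 had 2 to 23 reads a library and Fat4 at most 6.

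Of the 10 genes of planar polarity and of Fat signalling tested (of 11 listed), 1 rose and 2 fell at 48 h, 2 rose and 4 fell at 72 h, and 1 rose and 1 fell at 240 h, beside the shares of all genes given for the cytoplasmic partners. Prickle2, a cytoplasmic polarity protein, fell at all 3 times (-1.37, -2.13 and -1.67). Vangl1, a core membrane protein of planar polarity, fell by 0.97 and 1.10 at 48 and 72 h. Prickle4 rose by 1.21 and 0.93 at the same times, and Prickle3 by 0.63 at 72 h. The 48 h and 72 h calls of Prickle4 and the 72 h call of Prickle3 were lost with no minimum of reads (adjusted p = 0.165, 0.169 and 0.0742), and both calls of Prickle4 with no trend in the prior variance (0.0523 and 0.0573). Neither 72 h call was made against 240 h ctrl (0.31 for Prickle4 and 0.56 for Prickle3), and they were lost without 48 h ctrl replicate 3 (Prickle4, 0.56) and without 48 h ctrl replicate 1 or 72 h kd replicate 2 (Prickle3, 0.49 and 0.58). Dchs1, the cadherin that Fat proteins bind on the next cell, rose by 1.41 at 240 h, from 3.04 ± 0.473 to 8.21 ± 0.329 RPM (SD, n = 3). Fjx1, a kinase that tunes that binding, fell by 1.06 and the receptor Fzd6 by 0.65 at 72 h, of which the call of Fzd6 was lost without 48 h ctrl replicate 1, 48 h ctrl replicate 2 or 72 h kd replicate 1 (adjusted p up to 0.101) and with a pseudocount of 0.5 (-0.53). Of the calsyntenins, Clstn3 rose by 0.61 at 48 h, a call lost without 48 h ctrl replicate 2 (0.57). Neither of Ctcf and Smchd1 was called at any time by limma.

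Cdh13, Cdhr1, Cdh23 and Cdhr4 were low. Cdh13 (T-cadherin, which is anchored by lipid) was at 2.26, 2.07 and 2.21 RPM in 48 h ctrl and at 1.02, 1.94 and 1.21 RPM in 72 h kd (-0.66 ± 0.26, limma adjusted p = 0.0281), a call lost when any of 4 of the 6 libraries was left out (adjusted p up to 0.137). Cdhr1 (photoreceptor cadherin) was at 5.18, 3.97 and 5.21 RPM and at 2.89, 2.43 and 2.94 RPM in the same groups (-0.77 ± 0.18, 0.000696), but against 240 h ctrl the value was -0.51 and it was not called. Cdh23, the other tip link cadherin, fell at 48 h from 2.62, 2.53 and 2.47 RPM to 1.56, 1.53 and 1.17 RPM (-0.80 ± 0.22, limma adjusted p = 0.0183), a call lost when any of 4 of the 6 libraries was left out (adjusted p up to 0.0685). Vsir, a gene within the Cdh23 span, held a mean of 25.9 reads a library where Cdh23 held 35.6. In 48 h ctrl and 48 h kd Vsir was at 1.70 ± 0.403 and 0.814 ± 0.0801 RPM (SD, n = 3), so the reads counted for Cdh23 cannot be told apart from those of Vsir. Cdhr4 was not called at any time, with log2 fold changes between 0.48 and 0.86. Gm20662, which overlaps Cdhr4, held a mean of 362 reads where Cdhr4 held 11.33, and their reads may not be separable.

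Between the 2 harvests of the control cells few cadherin genes differed. Of the 29 genes, 1 was higher and 0 lower in 240 h ctrl than in 48 h ctrl by limma (5 had an unadjusted p under 0.05), beside 0.867% and 0.495% of all genes tested. The gene was Cdh23 (0.61 ± 0.19, limma adjusted p = 0.0479), which shares its reads with Vsir, and its call was lost when any of 5 of the 6 libraries was left out (limma adjusted p up to 0.210). Between 48 h kd and 72 h kd, 2 genes were higher (Cdh22 and Cdh23) and 7 lower (Cdh2, Cdh4, Cdh6, Cdh9, Cdh10, Cdh12 and Pcdh17), beside 6.66% and 6.29% of all genes. The log2 differences of those 7 lay between -1.46 (Pcdh17) and -0.64 (Cdh6). Calls for Cdh4, Cdh6, Cdh10, Cdh22 and Pcdh17 were lost without 1 or more single libraries.

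The knockdown effect at 240 h was then tested against that at 48 h in a fit of 12 libraries with separate controls. For 5 genes (Cdh2, Dsc2, Pcdh1, Pcdh7 and Pcdh19) the 240 h effect was higher and for 4 (Cdh1, Cdh3, Dsg2 and Celsr3) lower, beside 5.40% and 5.09% of all genes tested. The first 5 include all 3 genes that fell at 72 h and rose at 240 h, and the other 4 include Cdh1, Cdh3 and Dsg2, which with Fat1 had the highest levels per kb of exon in 48 h ctrl. The call for Pcdh7 (1.33 ± 0.43, limma adjusted p = 0.0365) was lost when any of 7 of the 12 libraries was left out (up to 0.0972). For the other 20 followed genes no difference between the times was called, among them Cdh4, Cdh6, Cdh10, Cdh12 and Cdh15.

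The 48 genes under the minimum held few reads together. The 22 beta protocadherins, clustered genes used mostly by neurons, had 13 to 32 reads in sum in each library, with Pcdhb17 the highest at 2 to 17 reads. Their summed level was 1.48 ± 0.258 RPM (SD, n = 3) for 48 h ctrl, 2.62 ± 0.136 RPM for 48 h kd and 1.12 ± 0.114 RPM for 72 h kd. For the later harvest it was 1.46 ± 0.291 RPM without and 2.06 ± 0.318 RPM with knockdown. The other 26 genes summed to 4.78 ± 0.648 RPM for 48 h ctrl, 3.86 ± 0.793 RPM for 48 h kd and 3.13 ± 0.415 RPM for 72 h kd. They summed to 3.89 ± 0.519 RPM without and 7.49 ± 0.547 RPM with knockdown at 240 h. Pcdh18, a protocadherin of mesenchyme and neural tissue, had the largest single part in that, with 3, 7 and 0 reads at 240 h without knockdown and 15, 23 and 32 reads with it. All 22 beta protocadherins lie within the spans of longer genes (Gm42416, Gm37013 and Gm37388), whose reads cannot be told apart from theirs. These sums are given as values, with no test.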

How the data were processed

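Total RNA of 15 libraries was sequenced as single reads, and per the labels' processing notes the authors aligned to mm10 (GRCm38.p6) with STAR 2.7.0c and used R 4.0.3 and DESeq2 1.30.0; the gene annotation behind the RNA counts is not given in the sources used here. The deposited values are FPKM per gene over the whole span, introns included; whether counting used strand is not given in the sources used here. The library total was inferred from the smallest value above 0 of FPKM times span, taken as 1 read. Reads were recovered as FPKM times span times library total, and RPM as FPKM times span in kb. Since FPKM divides by the span, an FPKM minimum drops long genes, so genes with a mean of 10 reads were tested instead (16370 of 55228). The followed members have a median span of 116811 bp, and all genes tested 20936 bp. Fits used limma 3.58.1 (R 4.3.3, trend in the prior variance, two-sided) on log2(RPM + 0.1), over the 6 libraries of a comparison or 12 for the difference between times, with Benjamini-Hochberg adjustment over all genes tested. Fold changes on this scale understate the change of low genes. The fits were tested on simulated data before use, with changes set only in genes of higher level, so that the low genes were not covered. Exon lengths came from GENCODE M21, which matched 96.5% of the listed genes and 77 of 77 members. Promoter sequences came from RefSeq (GRCm38.p6). Figures were drawn with Python 3.11.15 and matplotlib 3.10.9.

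The rule for the members used symbols alone. That rule, the 47 partner genes, the 41 marker genes and the tests were all chosen with earlier results of these data known. Named were Smarcb1, each followed member called in a knockdown comparison, Cdh1, Cdh2, Cdh3, the Celsr and Fat genes, and each partner gene called; the other members were given by name and range. The class of proteases and turnover genes among the partner genes is not reported here. Alternatives were other pseudocounts (0.02 and 0.5), minimums of reads or FPKM, scalings, tests and thresholds, a replicate block, and leaving out each library.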

Additional observations from a re-analysis of the deposited data

Results flagged for a closer look

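The knockdown effect at 240 h differed from that at 48 h, by the interaction term of the 12-library limma fit, for 9 followed cadherin genes. On the log2 scale the 240 h effect was higher by 1.85 for Pcdh19, 1.64 for Cdh2, 1.43 for Dsc2, 1.40 for Pcdh1 and 1.33 for Pcdh7. For Dsg2 and Celsr3 the difference was -0.81, for Cdh3 -0.84 and for Cdh1 -0.67. The 4 genes with a negative difference were not alike in their course. Cdh1, Cdh3 and Dsg2 were lower in kd at both times and more so at 240 h, whereas Celsr3 had a log2 fold change of 0.54 at 48 h and of -0.27 at 240 h, neither of them called. For Cdh2 the difference came from a fall at 48 h that was not seen at 240 h. The call of Pcdh7 was lost when any of 7 of the 12 libraries was left out. The time under knockdown and the day of harvest cannot be told apart in these differences, though each time has its own control.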

How the results depend on the processing

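The count of called cadherin genes (8, 13 and 15 at 48, 72 and 240 h, 1 between ctrl groups, 9 between 48 h kd and 72 h kd, 9 for the difference between times) was lowest, at 1, 1, 4, 0, 0 and 3, with log2(FPKM + 0.1) and a mean of 0.5 FPKM, which changes the scale and the minimum together, and the cause was not tested. The 15 at 240 h include Pcdh17 and Cdh10, which passed the minimum only through 240 h kd. Of the 27 genes that reach it without that group, 8 rose and 5 fell. With a mean of 50 reads the count was 4, 7 and 5 at the 3 times, 0 between ctrl groups and 2 between kd groups. Followed genes under the minimum of 0.5 FPKM or of 50 reads, such as Cdh23 with a mean of 35.6 reads, were not tested in that setting. A lower count there holds untested genes as well as lost calls. With no minimum of reads the count was 4 at 48 h, 0 between ctrl groups and 3 between kd groups. At an adjusted p under 0.01 it was 3 at 48 h, 0 between ctrl groups and 4 between kd groups, and with no minimum of fold change 14 at 48 h and 2 between ctrl groups. The single call between ctrl groups was also lost, leaving 0, with a pseudocount of 0.5, with limma voom and with no trend in the prior variance. Leaving out 1 library at a time gave 4 to 8 calls at 48 h, 11 to 14 at 72 h, 14 to 16 at 240 h, 0 to 2 between ctrl groups, 5 to 7 between kd groups and 8 to 10 for the difference between times. It was lowest (4) at 48 h without 48 h ctrl replicate 2 or 3, and 7 without 48 h kd replicate 2, the library with the highest mitochondrial share. Against 240 h ctrl in place of 48 h ctrl, 14 genes were called at 72 h kd. Smarcb1 fell by 2.33 to 2.76 on the log2 scale in the fits without 1 library. Among the called cadherin and partner genes no direction was reversed under any alternative run, and genes not called were not checked for this. The labels do not say whether replicate numbers mark pairs. The correlation of same-numbered libraries ran from -0.37 to 0.19 over the 3 comparisons. This cannot decide it, since each group has only 3 libraries and was centred on its own mean. With the replicate block 6, 13 and 15 genes were called at the 3 times and 8 between kd groups, with the 48 h calls of Cdh18 and Pcdh19 lost (adjusted p = 0.0543 and 0.0648). Genes under 100 reads are limited by depth, and a missing call among them does not show an absent change.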

Other observations

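The other cadherin genes under the minimum of reads gave values that were not tested. Pcdh8, a protocadherin of the early mesoderm and of neurons, held 7, 2 and 3 reads in the libraries of 48 h ctrl, then 2, 0 and 0 reads after 48 h of knockdown and 1, 2 and 0 reads after 72 h. At 240 h it held 4, 1 and 4 reads without and 8, 13 and 10 reads with knockdown. Cdh11, a type II cadherin of mesenchyme, held 6, 5 and 4 reads without and 18, 13 and 10 reads with knockdown at 240 h. Fat3, which shapes neurons, held 23, 14 and 10 reads in the libraries of 48 h ctrl, then 7, 5 and 10 reads after 48 h of knockdown and 2, 6 and 3 reads after 72 h. These genes were picked out after their values were seen.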
